A study of Mus musculus with 15 samples.

Results

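Transcripts of 10 genes of the nuclear lamina and nuclear matrix were followed through 15 populations of mouse embryonic fibroblasts. The genes were the lamins Lmna, Lmnb1 and Lmnb2, the inner nuclear membrane proteins Lbr, Emd and Tmpo, and the matrix-associated RNA-binding proteins Hnrnpu, Hnrnpk, Matr3 and Safb. They were found by symbol among the 65522 transcription units of the deposited expression table, where 18 units carried one of these names. For each gene, 1 unit lies on the strand of the gene and is described here under the gene symbol. The other 8 units, at 7 of the genes, lie on the opposite strand and are named as such.

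The cells were grown from individual female embryos of days 13 to 14 of gestation, and each primary population came from 1 embryo. WT primary cells came from the embryos E13.8, E14.4 and E13.1. CIZ1 null primary cells came from E13.17, E14.2 and E13.15. All were used at passage 5 or before. CIZ1 null embryos were homozygous for a gene trap inserted downstream of exon 1 of Ciz1, made in a C57BL/6 embryonic stem cell clone. From each of these 6 populations 1 culture-adapted line was derived, which had emerged by passage 20, giving 3 WT adapted and 3 CIZ1 null adapted lines. E13.17 carried transgenes for doxycycline-inducible GFP-CIZ1 and was untreated. A further untreated CIZ1 null population with these transgenes (S13) and 2 such populations collected 24 h after doxycycline at 5 to 10 µg per ml (S14 and S15) made up the induction experiment, together with untreated primary E13.17. The study used the embryos E13.17 and E14.19 for induction, which leaves E14.19 for S13. Which of S14 and S15 came from which embryo is not given in the sources used here, so these populations were not paired.

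The nuclear lamina is a meshwork of A-type lamins (lamin A and C, both from Lmna) and B-type lamins (from Lmnb1 and Lmnb2) under the inner nuclear membrane. Integral membrane proteins such as the lamin B receptor, emerin and the membrane-bound polypeptides of Tmpo tie the lamina to chromatin, and the inactive X chromosome is held at the nuclear edge through the lamin B receptor. The nuclear matrix is what remains of the nucleus after chromatin and soluble proteins are extracted; it holds RNA-binding proteins such as hnRNP U (also called SAF-A), hnRNP K, matrin 3 and SAFB, and CIZ1 is attached to it. The comparisons ask whether the transcripts of this scaffold depend on CIZ1 and on adaptation to culture.

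Before the values, the sequences before the start sites of 4 of the genes are given. Lmna and Emd were lower in every adapted line than in its own primary population, Tmpo was higher in all 3 WT adapted lines, and Lmnb2 is a lamin gene that kept its level in the WT lines. The sequences are the 250 bases upstream of the first RefSeq start site in GRCm38.p6, read 5′ to 3′ on the strand of the gene, with GC boxes and CCAAT boxes in capitals. They lie at chr3:88503353-88503602 (minus strand) for Lmna, chr10:80918246-80918495 (minus) for Lmnb2, chrX:74254437-74254686 (plus) for Emd and chr10:91171620-91171869 (minus) for Tmpo. Lmna, Lmnb2 and Tmpo each have 2 start sites in the RefSeq table. The units assembled by the authors for Lmna, Emd and Tmpo begin farther upstream than the windows shown.
Lmna: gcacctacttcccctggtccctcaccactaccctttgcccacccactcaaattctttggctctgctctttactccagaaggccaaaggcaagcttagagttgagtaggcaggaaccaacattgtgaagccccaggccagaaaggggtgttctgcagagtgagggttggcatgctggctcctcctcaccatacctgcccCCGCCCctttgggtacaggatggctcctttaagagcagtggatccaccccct
Lmnb2: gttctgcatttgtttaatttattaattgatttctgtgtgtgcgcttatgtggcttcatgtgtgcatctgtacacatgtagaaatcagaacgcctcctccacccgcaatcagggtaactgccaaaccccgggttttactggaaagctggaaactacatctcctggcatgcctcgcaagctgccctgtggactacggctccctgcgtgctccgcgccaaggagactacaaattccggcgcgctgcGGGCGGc
Emd: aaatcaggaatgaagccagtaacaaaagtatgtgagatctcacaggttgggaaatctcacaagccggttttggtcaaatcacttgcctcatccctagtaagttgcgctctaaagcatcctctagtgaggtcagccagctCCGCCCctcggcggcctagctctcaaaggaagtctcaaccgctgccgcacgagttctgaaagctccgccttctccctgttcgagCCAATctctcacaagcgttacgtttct
Tmpo: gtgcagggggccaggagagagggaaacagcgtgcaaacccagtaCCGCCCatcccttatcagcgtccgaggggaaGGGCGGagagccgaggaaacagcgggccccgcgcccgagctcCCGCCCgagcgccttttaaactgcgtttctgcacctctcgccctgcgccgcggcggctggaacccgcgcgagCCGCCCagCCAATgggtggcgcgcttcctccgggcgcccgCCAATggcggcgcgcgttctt

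A window was in the table for 8 of the 10 genes, and both strands of each were searched for fixed words. A GC box (GGGCGG, or CCGCCC on the other strand) was in 6 of the 8 windows, against 32.7% of all 32851 windows. A CCAAT box (CCAAT or ATTGG) was in 4, against 33.8% of all. The Tmpo window held 4 GC boxes and 2 CCAAT boxes, the Emd window 1 of each, and the Lmna and Lmnb2 windows 1 GC box each and no CCAAT box. None of the 8 windows held an E2F word (TTTCCCGC, TTTCGCGC, TTTGCCGC or TTTGGCGC, found in 1.86% of all windows) or a TATA box (TATAAA, 12.4%), and 1 of them, that of Lbr, held the CHR element (TTTGAA, 16.0%), a word of many cell cycle promoters. The window before the second Tmpo start held 1 E2F word and 1 CHR element, and that before the second Lmna start 1 CCAAT box. The words do not overlap each other in the windows printed. The share of G and C ran from 51.2% in Emd to 73.6% in Hnrnpu, and the median of all windows was 52.4%. These are matches of letters and were not tested as binding sites.

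Expression is given in FPKM, the authors' normalised number of fragments scaled to the length of the transcript and to the size of the library. FPKM is scaled by length, so levels can be set side by side between the gene-strand units. The order given next leaves out the opposite-strand units, which for Lmnb1 had means of 12.5 and 3.49 FPKM in WT primary cells. The units of Hnrnpu, Matr3, Lbr and Emd are also listed with other names. In WT primary cells Lmna was the highest of the 10 genes (mean 461 FPKM ± 14.95 SD, n = 3), followed by Hnrnpk (363.0 ± 30.9) and Hnrnpu (158 ± 10.8). Matr3 (86.4 ± 2.34) and Emd (84.8 ± 2.24) were next and overlapped. Safb (36.5 ± 4.53) and Tmpo (35.7 ± 1.23) overlapped too, and Lmnb1 (23.0 ± 2.88), Lbr (14.3 ± 2.54) and Lmnb2 (6.90 ± 1.82) were the lowest, with no overlap between any of these 3. The gene-strand units of all 10 genes passed the filter on low values, a mean of at least 1 FPKM over the samples compared, in every comparison.

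**Figure D1:**
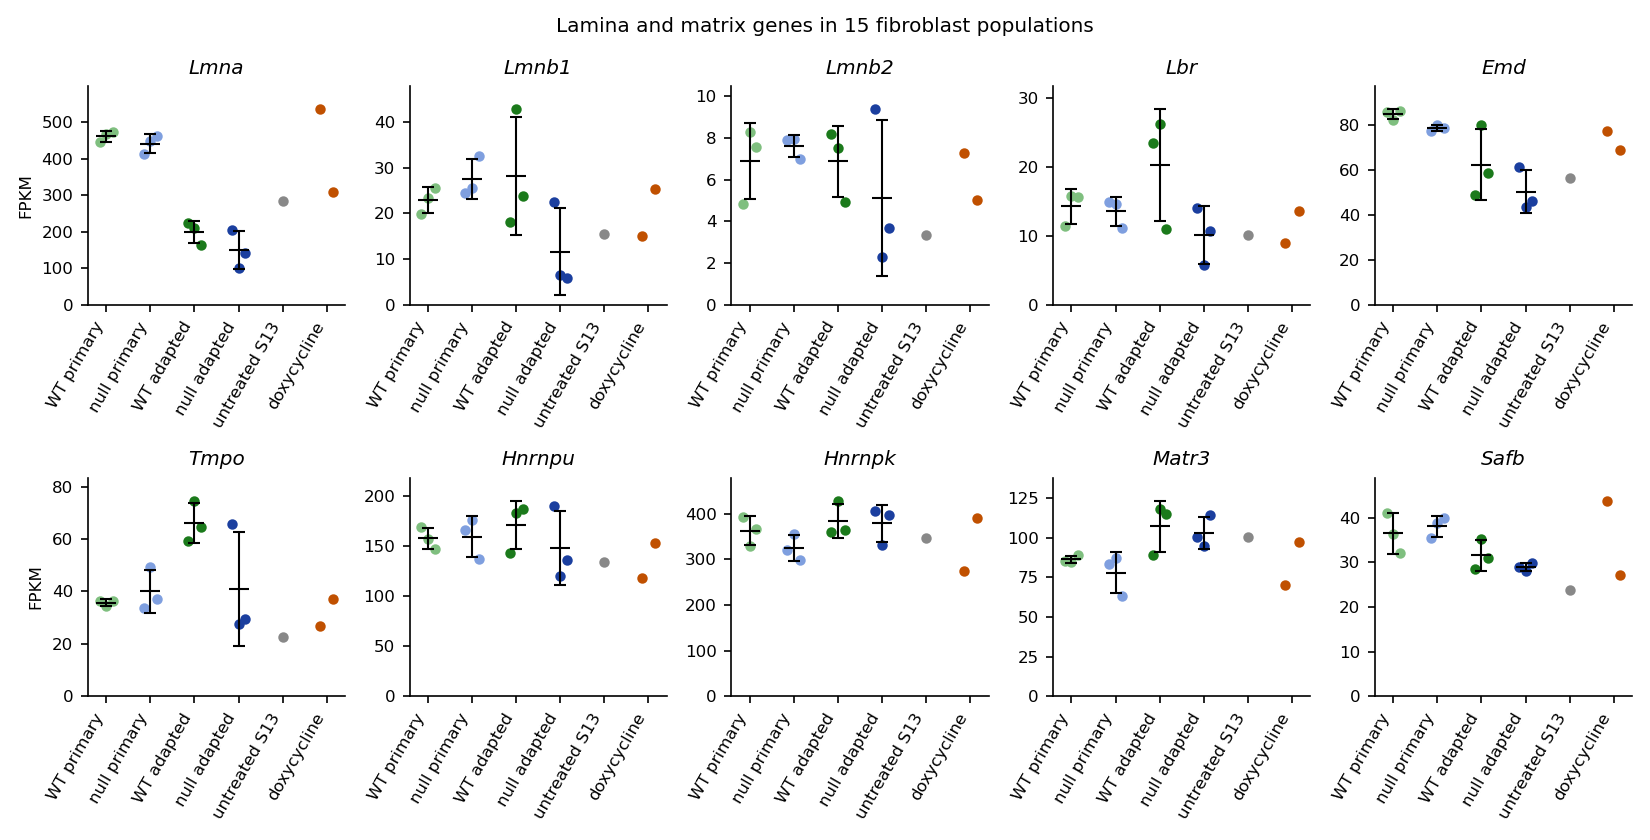
FPKM (linear axis from 0) of the 10 genes in each population, by group. Points are single populations, and black bars are the mean and SD of the groups of 3; S13 and the 2 doxycycline-treated populations have no bar. Lmna is lower in all 6 adapted lines than in all 6 primary populations, while Lmnb1, Lmnb2 and Tmpo are spread widely among the 3 CIZ1 null adapted lines.

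Some features of the libraries bear on all results. Ciz1 was at 19.1 to 25.0 FPKM in WT primary cells and 18.7 to 24.1 in WT adapted cells, at 0.0546 to 0.724 in the untreated CIZ1 null populations, and at 191 and 296 after doxycycline, as labelled. The number of reads behind each value is unknown. The depth of a library relative to WT primary E14.4, taken from the step that 1 fragment makes in units of low expression, was 1 to 1.63 in the 6 primary populations and 0.541 to 1.19 in the 6 adapted lines. The kit does not mark strand, so reads of a gene and of a unit on its opposite strand cannot be told apart. The summed FPKM of 8 fibroblast genes was 8153 to 8845 in primary populations and 2341 to 4781 in adapted lines. Of these genes Col1a1 (from a mean of 2984 to 716 FPKM), Vim (2668 to 1179) and Col1a2 (1532 to 778) fell over both genotypes. Only these 3 of the 8 were called there, and 6 estimates were below 0 and 2 above 0. Summed markers of epithelial cells (at most 6.92 FPKM), endothelial cells (2.55), leukocytes (15.4), muscle (11.5), neural cells (1.82) and chondrocytes (18.4) were low in every population. Of these markers Krt18 (from a mean of 2.10 to 0.0420 FPKM), Cd68 (3.50 to 0.552) and Des (6.996 to 0.107) fell over both genotypes, and their part in the results on adaptation was not tested. In bulk RNA, fewer cells of a type and less RNA per cell cannot be told apart.

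The CIZ1 null adapted lines did not resemble each other in proliferation genes, and this split ran through several of the lamina genes. The summed FPKM of 15 proliferation genes (among them Mki67, Top2a, Ccnb1 and Mcm5) was 496 to 755 in the 6 primary populations and 962 to 1097 in the 3 WT adapted lines. It was 1090 in CIZ1 null adapted E13.15, but 130.0 in CIZ1 null adapted E13.17 and 236 in CIZ1 null adapted E14.2. Mki67 was at 22.3 FPKM in E13.15 and at 0.340 and 2.02 in the other two. The part of this difference in the results below was not tested, and values for these lines are given one by one.

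The 6 adapted lines were compared with the 6 primary populations, paired by embryo, to ask what changed with adaptation in either genotype. Lmna and Emd fell and Matr3 rose, and the other 7 genes were not called. Calls required an adjusted p (limma on log2(FPKM + 1), Benjamini-Hochberg over all 20046 units tested) under 0.05, and 31.4% of all units were called, against 3 of the 10 genes. The median change of the 10 genes was -0.16 log2 units, against -0.05 over all units, and the median size of the change was 0.34 against 0.40. Values of primary and adapted cells did not overlap for 1 of the 10 genes, Lmna, against 17.4% of all units. Tmpo (0.40), Lmnb2 (-0.33) and Lbr (-0.025) were among those not called. This comparison was added after the separate comparisons had been seen, and it assumes 1 change shared by both genotypes, whereas Lmnb1, Lmnb2, Lbr and Tmpo were higher in some lines and lower in others.

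Lmna (chr3:88480147-88509956, minus strand) encodes lamins A and C, which stiffen the nucleus. In WT cells it was at 467 FPKM in primary E13.1 and 224 in the adapted line, at 473 and 209 in E13.8, and at 444.5 and 164 in E14.4. In CIZ1 null cells it was at 449 and 204.5 in E13.15, at 461 and 101 in E13.17, and at 413 and 141.5 in E14.2. The values of these 6 primary populations lay close together and all 6 adapted values lay far below them. Outside this comparison, untreated S13 was at 284.5 FPKM, and doxycycline-treated S14 and S15 were at 534 and 308. The lowest adapted values were those of null E13.17 and E14.2, the lines with few proliferation transcripts. Lmna fell by 1.42 log2 units (SE 0.16, 2.67-fold, adjusted p 0.0019 by limma), from 2.08-fold in E13.1 to 4.58-fold in E13.17. It was called under each alternative of this comparison, with adjusted p from 0.000171 to 0.00844.

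The same fall of Lmna was seen in each genotype by itself, with less support. In WT cells the mean went from 461 ± 14.95 to 199 ± 31.0 FPKM (SD, n = 3 each), a change of -1.22 log2 units (SE 0.17, limma adjusted p 0.015). In CIZ1 null cells it went from 441 ± 25.0 to 149 ± 52.3 FPKM, a change of -1.62 (SE 0.28, limma adjusted p 0.035). The null comparison was not called when embryos were blocked (limma adjusted p 0.0902). Both calls were lost when any 1 of the primary populations of the genotype was left out (limma adjusted p 0.0766 to 0.0926 in WT and 0.119 to 0.16 in CIZ1 null cells), and the null call also without adapted E14.2 (0.0871). The difference between the null and the WT change was -0.40 log2 units (95% interval -1.12 to 0.32, limma adjusted p 0.996) and was not called.

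Lmnb1, on chromosome 18, encodes lamin B1, a B-type lamin that stays farnesylated and bound to the membrane. In WT cells it was at 23.3 FPKM in primary E13.1 and 18.04 after adaptation, at 25.6 and 42.7 in E13.8, and at 19.9 and 23.9 in E14.4. The CIZ1 null populations had it at 25.5 and 22.5 in E13.15, at 32.5 and 6.49 in E13.17, and at 24.5 and 5.94 in E14.2. WT primary and adapted values overlapped, and the 2 null lines with few proliferation transcripts had the lowest Lmnb1 of all 15 populations. The change was 0.20 log2 units in WT cells (SE 0.32, limma adjusted p 0.70) and -1.40 in CIZ1 null cells (SE 0.48, limma adjusted p 0.12), where the groups did not overlap. Untreated S13, not counted in the null primary group, was at 15.6 FPKM, within the null adapted range. Over both genotypes the change was -0.60 (SE 0.39, limma adjusted p 0.27).

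The Lmnb1 gene also had 2 opposite-strand units, which took a median of 29.8% and 14.8% of the FPKM of their pair with the gene-strand unit. The first of them went from 8.34 to 15.1 FPKM in WT primary cells to 5.29 to 15.4 in WT adapted cells. In CIZ1 null cells it went from 18.1, 19.9 and 14.5 FPKM in primary E13.15, E13.17 and E14.2 to 9.32, 1.78 and 1.03 in the adapted lines. It was thus also lowest in the same 2 lines.

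Lmnb2 (chr10:80901203-80918245, minus strand), the other B-type lamin gene, was at 8.30 FPKM in primary E13.1 and 8.19 after adaptation, at 7.56 and 7.5 in E13.8, and at 4.83 and 4.93 in E14.4. Among CIZ1 null embryos it was at 7.96 and 9.37 in E13.15, at 7.005 and 2.30 in E13.17, and at 7.91 and 3.69 in E14.2. In WT cells each line kept nearly the level of its own embryo, within 1.02-fold. The estimate for WT cells was -0.001 log2 units (95% interval -0.64 to 0.64), and that for CIZ1 null cells was -0.67 (SE 0.41, limma adjusted p 0.33).

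The balance of A-type to B-type lamin transcripts was described by the ratio of Lmna to the sum of Lmnb1 and Lmnb2, a measure chosen after the values were seen. The ratio was 14.8, 14.2 and 17.96 in WT primary cells of E13.1, E13.8 and E14.4, and 8.54, 4.16 and 5.70 in the adapted lines. In CIZ1 null cells it was 13.4, 11.7 and 12.7 in E13.15, E13.17 and E14.2 before adaptation and 6.41, 11.5 and 14.7 after adaptation. It was thus lower in all 3 WT adapted lines and in null E13.15, close to the primary values in null E13.17 and above them in null E14.2. Over both genotypes the ratio was 1.803-fold lower in adapted lines (exact two-sided permutation test of the log2 ratio, 6 against 6, p = 0.017). Paired by embryo it was lower in 5 of 6 lines, and the exact sign-flip permutation test gave p = 0.0938, which did not pass 0.05. Within genotypes it was 2.65-fold lower in WT cells (exact permutation p = 0.10) and 1.23-fold lower in CIZ1 null cells (exact permutation p = 0.60). The smallest p that 3 against 3 allows in this test is 0.10, so neither genotype by itself could pass 0.05.

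**Figure D2:**
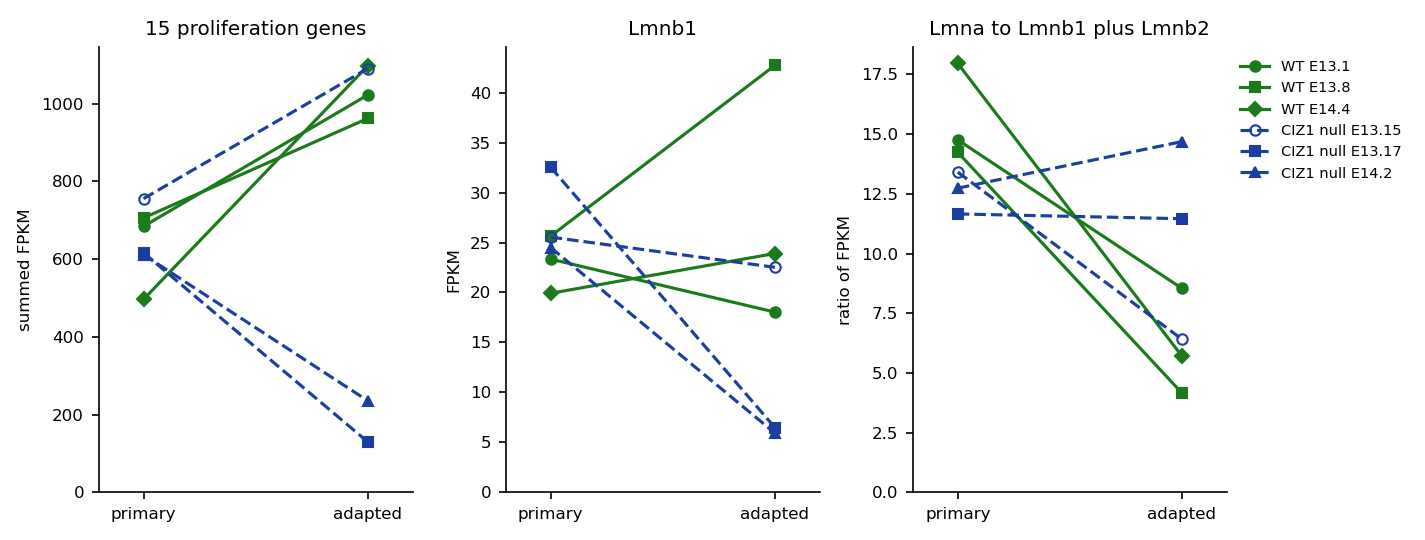
Summed FPKM of 15 proliferation genes, FPKM of Lmnb1, and the ratio of Lmna to Lmnb1 plus Lmnb2, each on a linear axis from 0, in primary populations and in the adapted lines derived from them. Lines join the samples of 1 embryo (WT solid green, CIZ1 null dashed blue); null E13.17 and E14.2 fall to 130.0 and 236 in proliferation genes and to 6.49 and 5.94 in Lmnb1, while null E13.15 stays near the WT lines.

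Among the inner nuclear membrane genes, Emd fell on adaptation and Tmpo rose in WT cells, whereas Lbr was not called in any comparison. Emd (chrX:74253669-74262443, plus strand, in a unit listed with Gm14686) encodes emerin, a LEM-domain protein that binds lamin A. It was at 82.2 FPKM in primary E13.1 and 48.8 after adaptation, at 86.1 and 80.0 in E13.8, and at 86.1 and 58.8 in E14.4. The CIZ1 null populations had it at 80.3 and 61.2 in E13.15, at 78.6 and 43.5 in E13.17, and at 77.5 and 46.2 in E14.2. All 6 lines were below their own embryo, by 1.08-fold in E13.8 to 1.81-fold in E13.17, and adapted E13.8 overlapped the range of the null primary cells. Over both genotypes Emd fell by 0.56 log2 units (SE 0.13, 1.47-fold, limma adjusted p 0.018).

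The call for Emd depended on how samples were scaled. With quantile-normalized values the median over all units became 0.06 in place of -0.05, and the change of Emd was -0.32 (limma adjusted p 0.102). Without both samples of E14.2 it was -0.52 (limma adjusted p 0.0506). By itself neither genotype called it, with -0.46 in WT cells (SE 0.21, limma adjusted p 0.19) and -0.65 in CIZ1 null cells (SE 0.19, limma adjusted p 0.087), although primary and adapted values did not overlap in either. The opposite-strand unit of Emd, at 4.81% of the pair at the median, was also lower in 6 of 6 lines (-0.41, SE 0.13, limma adjusted p 0.047). That call was lost without a filter on FPKM (limma adjusted p 0.0875) and without both samples of any 1 embryo (0.0571 to 0.119).

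Tmpo (chr10:91147171-91172030, minus strand) encodes the lamina-associated polypeptides 2, whose isoforms bind lamins and the DNA-bridging protein BAF. The unit does not separate its membrane-bound from its other isoforms. In WT cells it was at 34.3 FPKM in primary E13.1 and 59.4 after adaptation, at 36.4 and 74.5 in E13.8, and at 36.45 and 64.7 in E14.4. Among CIZ1 null embryos it was at 49.4 and 65.8 in E13.15, at 36.9 and 27.4 in E13.17, and at 33.6 and 29.6 in E14.2. Every WT adapted line was above every WT primary population, and null E13.15 was above its own embryo too, while the other two null lines were below their own embryos. In WT cells Tmpo rose by 0.87 log2 units (SE 0.16, 1.82-fold, limma adjusted p 0.027), a call lost when embryos were blocked (limma adjusted p 0.0697), with all 4 groups in the fit (0.0757) and without any 1 WT primary population (0.112 to 0.126).

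The estimate for Tmpo in CIZ1 null cells was -0.06 log2 units (95% interval -0.94 to 0.82, limma adjusted p 0.92). The unit on the opposite strand of Tmpo, at a median of 20.4% of the pair, did not follow it in WT cells: it was at 12.5 to 15.02 FPKM in primary and 12.9 to 16.2 in adapted cells. In CIZ1 null cells it was at 14.96 to 20.97 FPKM in primary cells and at 14.1, 7.03 and 5.77 in adapted E13.15, E13.17 and E14.2.

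Lbr, which encodes the lamin B receptor, a membrane protein that also has sterol reductase activity, was measured in a unit at chr1:181576559-181843046 (minus strand) listed with Gm26004, whose locus is shared by 4 units. It was at 15.9 FPKM in primary E13.1 and 23.5 after adaptation, at 15.7 and 26.2 in E13.8, and at 11.4 and 11 in E14.4. The CIZ1 null populations had it at 14.7 and 13.99 in E13.15, at 11.1 and 5.74 in E13.17, and at 14.9 and 10.7 in E14.2. It was higher in 2 of 3 WT lines and lower in each null line, and groups overlapped in both genotypes. The changes were 0.40 log2 units (SE 0.34, limma adjusted p 0.47) in WT and -0.45 (SE 0.32, limma adjusted p 0.39) in CIZ1 null cells.

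Of the matrix-associated genes Matr3 rose over both genotypes, and Hnrnpu, Hnrnpk and Safb were not called. Matr3, on chromosome 18 in a unit listed with Snhg4 and 3 other names, encodes matrin 3, an RNA- and DNA-binding protein of the inner matrix. It was at 84.6 FPKM in primary E13.1 and 88.9 after adaptation, at 89.1 and 118 in E13.8, and at 85.6 and 115 in E14.4. Among CIZ1 null embryos it was at 87.5 and 100.4 in E13.15, at 63.3 and 94.6 in E13.17, and at 83.3 and 114 in E14.2. All 6 lines were above their own embryo, by 1.05-fold to 1.495-fold, although WT adapted E13.1 stayed below primary E13.8.

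Over both genotypes Matr3 rose by 0.35 log2 units (SE 0.11, 1.28-fold, limma adjusted p 0.0485), just under the threshold. The call was lost without a filter on FPKM (limma adjusted p 0.051) and without both samples of any 1 embryo (0.0504 to 0.113). The opposite-strand unit of Matr3 had a larger change in the same direction, from 7.31 to 9.90 FPKM in the 6 primary populations to 13.4 to 17.3 in the 6 adapted lines, with no overlap (0.75, SE 0.13, limma adjusted p 0.0065). In WT cells alone that unit was called too (0.74, limma adjusted p 0.046), though not when embryos were blocked (0.103). This WT call was also lost without a filter on FPKM (limma adjusted p 0.0655) and without any 1 WT primary population (0.125 to 0.183). It was lost as well without WT adapted E13.1 (0.0581) or E13.8 (0.085).

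Hnrnpu, which encodes the scaffold attachment factor A that anchors Xist RNA to chromatin, was measured in a unit at chr1:178271238-178337962 (minus strand) whose locus is shared by 7 units. It was at 157, 147 and 169 FPKM in WT primary E13.1, E13.8 and E14.4 and at 143, 183 and 187 after adaptation. In CIZ1 null cells it was at 176, 137 and 166 FPKM in E13.15, E13.17 and E14.2 before adaptation and at 189.8, 119.7 and 136 after adaptation. It was higher in 3 embryos and lower in 3, and its change over both genotypes was -0.01 log2 units (95% interval -0.29 to 0.27, limma adjusted p 0.97).

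Hnrnpk (chr13:58389041-58411149, minus strand) encodes hnRNP K, which binds Xist RNA and recruits Polycomb complexes. It was at 330.2, 367 and 392 FPKM in WT primary E13.1, E13.8 and E14.4 and at 360.2, 428 and 365 after adaptation. The CIZ1 null populations had it at 355, 298 and 320.2 FPKM in E13.15, E13.17 and E14.2 before adaptation and at 406, 332 and 398 after adaptation. It was above its own embryo in 5 of 6 lines with overlapping groups, and its change over both genotypes was 0.15 log2 units (SE 0.10, limma adjusted p 0.28), or 0.44 after quantile normalization (limma adjusted p 0.0134).

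Safb (chr17:56584825-56606294, plus strand) encodes the scaffold attachment factor B, which binds RNA and matrix attachment regions of DNA. It was at 36.3, 32.1 and 41.1 FPKM in WT primary E13.1, E13.8 and E14.4 and at 28.5, 35.4 and 31.0 after adaptation. Among CIZ1 null embryos it was at 38.9, 40.0 and 35.4 FPKM in E13.15, E13.17 and E14.2 before adaptation and at 29.0, 28.2 and 29.8 after adaptation. It was below its own embryo in 5 of 6 lines, and the null groups did not overlap. Untreated S13, not counted in the null groups, was at 23.9 FPKM, below all null adapted lines. With S13 among the null primary cells the null change was -0.22 (limma adjusted p 0.546), against -0.38 (0.16) without it. The change over both genotypes was -0.29 log2 units (SE 0.12, unadjusted limma p 0.048, adjusted p 0.11), and the fit without the embryo block called it (limma adjusted p 0.0404).

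**Figure D3:**
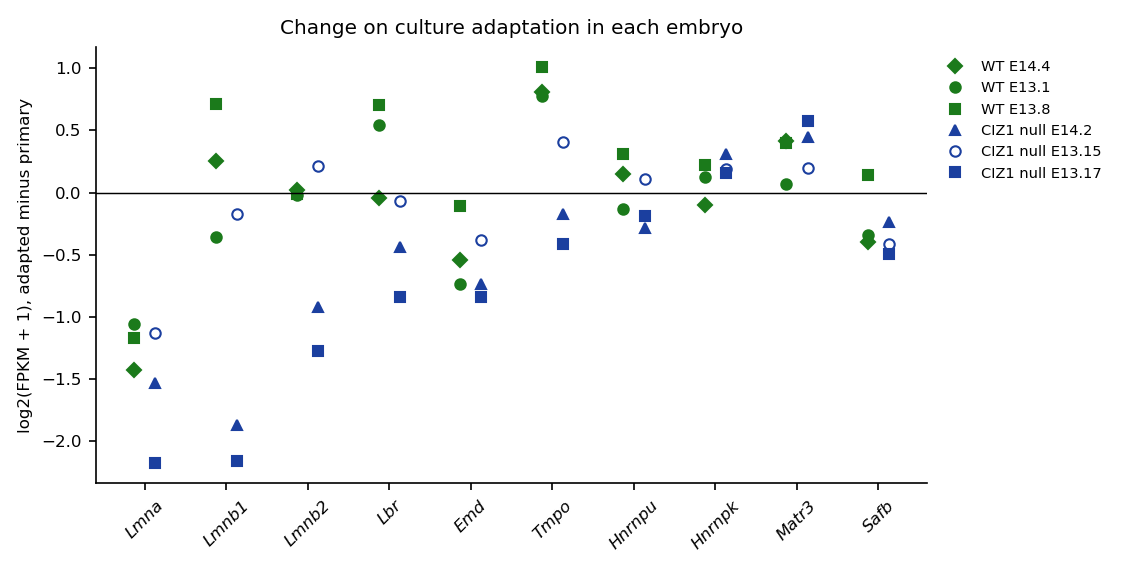
Change of each gene on culture adaptation in each embryo, as log2(FPKM + 1) of the adapted line minus that of the primary population (y axis). Symbols are embryos (WT green, CIZ1 null blue, E13.15 open). Lmna and Emd lie below 0 in 6 of 6 embryos and Matr3 above 0 in 6 of 6. For Lmna, Lmnb1, Lmnb2, Lbr, Tmpo and Hnrnpu, null E13.17 and E14.2 lie below the other 4 embryos.

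Within single genotypes, adaptation gave fewer calls among all units. In WT cells 2 of 10 were called (Lmna lower, Tmpo higher), where 9.55% of 19919 units were called, and 3 did not overlap between groups, where 38.7% of units did not. Of the 10 genes 1 was called in CIZ1 null cells (Lmna), where 4.86% of 20044 units were called, and 5 did not overlap, where 37.1% of units did not. Untreated S13, not counted in the null groups, lay within the null adapted range for Lmnb1, Emd and Matr3 and below it for Safb. The median change was 0.10 log2 units in WT and -0.42 in CIZ1 null cells, against -0.05 and -0.04 over all units. The number of called units was itself unstable: with embryos blocked it was 499 in place of 1902 in WT and 10 in place of 975 in CIZ1 null cells, and without any 1 primary population it was 62 to 70 in WT and 25 to 30 in CIZ1 null cells. It was 40 without CIZ1 null adapted E14.2. The matrix-associated genes had changes of 0.11 (Hnrnpu), 0.08 (Hnrnpk), 0.30 (Matr3) and -0.20 (Safb) in WT cells and of -0.12, 0.22, 0.41 and -0.38 in CIZ1 null cells.

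Whether CIZ1 loss changed adaptation itself was tested as the difference between the null and the WT change. None of the 10 genes was called by limma, against 0% of 20046 units. An unadjusted limma p under 0.05 was found for 928 of all units and for 2 of the 10 genes. These were Lmnb1, with a difference of -1.61 log2 units (95% interval -2.98 to -0.24, limma adjusted p 0.996), and Tmpo, with -0.93 (-1.85 to -0.01, limma adjusted p 0.996). Without CIZ1 null adapted E13.15, the null line closest to the WT lines in proliferation genes, both were called, Lmnb1 at -2.18 (limma adjusted p 0.0422) and Tmpo at -1.32 (limma adjusted p 0.0445), and 234 of 20086 units were called in all. With every line included, the other 8 differences were -0.85 for Lbr, -0.66 for Lmnb2, -0.40 for Lmna, -0.23 for Hnrnpu, -0.19 for Emd, -0.18 for Safb, 0.11 for Matr3 and 0.14 for Hnrnpk. In the null adaptation comparison, leaving out the same line gave 4 called genes in place of 1, namely Lmna, Lmnb1 (-1.97), Lmnb2 (-1.13) and Emd (-0.80), among 2999 called units in place of 975.

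Loss of CIZ1 in primary cells was followed by small differences in the lamina and matrix genes. None of the 10 genes was called by limma, where 0.00511% of 19566 units (1 unit, Ciz1) was called. None had an unadjusted limma p under 0.05, where 1225 of all units did. By Cuffdiff, the study reported a subset of units, more than Ciz1 alone, as affected by CIZ1 loss in primary cells. The limma estimates for the 10 genes lay between -0.16 log2 units for Hnrnpk and 0.25 for Lmnb1, with -0.16 for Matr3, -0.07 for Lbr, 0.07 for Safb and 0.14 for Tmpo. For Lmna the 95% interval was -0.30 to 0.16, for Emd -0.33 to 0.12 and for Hnrnpu -0.30 to 0.32, so changes of a full log2 unit lay outside them. The widest was that of Lmnb2, from -0.31 to 0.62. Emd was at 82.2 to 86.1 FPKM in WT and 77.5 to 80.3 in CIZ1 null primary cells and was the 1 gene of 10 whose values did not overlap (-0.10, SE 0.10, limma adjusted p 0.85), where 11.9% of units did not.

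In adapted cells all 10 estimates were below 0 in CIZ1 null lines, with a median of -0.38 log2 units against 0.03 over all units, but none was called by limma, where 0.00501% of 19976 units (1 unit, Ciz1) was called. Other lists did so too: 23 of 27 nuclear pore genes (median -0.26), 23 of 33 nuclear scaffold and hnRNP genes (-0.22) and all 15 proliferation genes (-2.125) were below 0. Of the inner nuclear membrane and LINC complex genes 8 of 15 (-0.006) were below 0, and of the lamin processing genes 2 of 5 (0.14). Lmnb1 had an unadjusted limma p of 0.046 (-1.36 log2 units, 95% interval -2.69 to -0.03, limma adjusted p 0.998). It was the only 1 of the 10 genes under 0.05 before adjustment, where 804 of all units were. Next were Lbr (-0.92, -1.96 to 0.12) and Tmpo (-0.79, -1.67 to 0.09). In each of these 3 genes WT and null values overlapped, because null E13.15 lay within the range of the WT lines. The intervals were wider than in primary cells, and that of Lmna (-0.46) ran from -1.21 to 0.28. The other estimates were -0.51 for Lmnb2, -0.29 for Emd, -0.22 for Hnrnpu, -0.115 for Safb, -0.05 for Matr3 and -0.02 for Hnrnpk. This comparison shares its lines with both adaptation comparisons, so their values are not independent.

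Re-expression of CIZ1 from the transgene was followed by no called change in these genes within 24 h. Untreated E13.17 and S13 were compared with S14 and S15, and none of the 10 genes was called by limma, where 0.0101% of 19768 units (2 units) was called, and none had an unadjusted p under 0.05. Lmna was at 461 and 284.5 FPKM in the untreated and at 534 and 308 in the treated populations (0.16 log2 units, 95% interval -0.80 to 1.13). Lmnb1 was at 32.5 and 15.6 FPKM untreated and at 15.1 and 25.4 treated. Tmpo was at 36.9 and 22.7 FPKM untreated and at 26.7 and 37.1 treated. Safb was at 40.0 and 23.9 FPKM untreated and at 43.8 and 27.2 treated. In each of these 4 genes the untreated and treated values overlapped. Emd was at 78.6 and 56.5 FPKM untreated and at 77.6 and 68.9 treated. Lbr was at 11.1 and 10.2 FPKM untreated and at 8.96 and 13.6 treated, and Matr3 at 63.3 and 100.5 untreated and at 70.4 and 97.4 treated. The values of all 10 genes overlapped between the pairs, and the estimates for Lmnb2 (0.26), Hnrnpk (0.02) and Hnrnpu (-0.01) were likewise not called. With 2 against 2 the intervals are too wide to say that levels were the same.

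**Figure D4:**
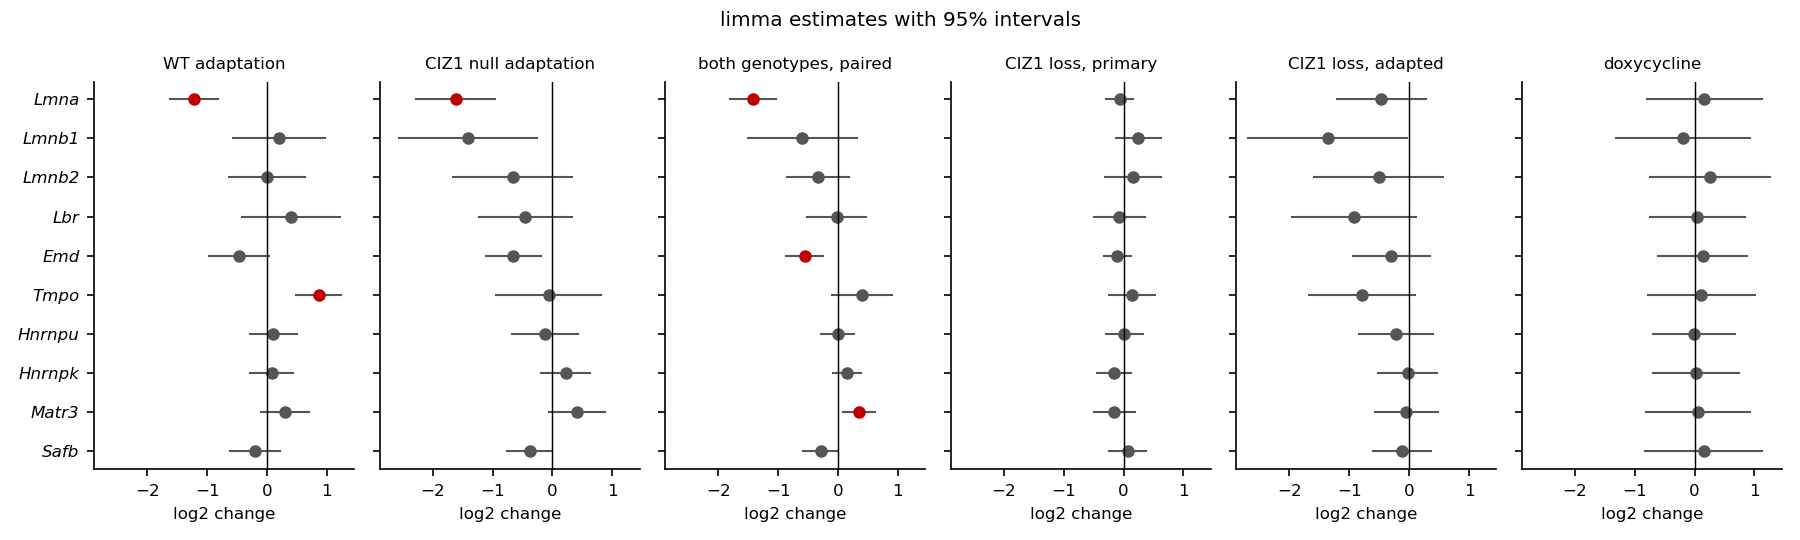
Estimated log2 change of each gene (limma on log2(FPKM + 1), points) with its 95% interval (lines) in 6 comparisons; red points were called at an adjusted p under 0.05. None of the 10 points is called for CIZ1 loss in primary or adapted cells or for doxycycline, and each interval for CIZ1 loss is narrower in primary than in adapted cells.

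Other genes of the nuclear envelope and matrix were counted over both genotypes, where 31.4% of all units were called. Of 15 inner nuclear membrane and LINC complex genes, 2 rose, 3 fell and 10 were not called, with a median of -0.04 log2 units. Syne1, which encodes nesprin-1 of the outer nuclear membrane, rose from a mean of 4.92 to 12.6 FPKM (1.13, SE 0.21, limma adjusted p 0.0076), and Tor1aip1 (the lamina-associated polypeptide 1) rose by 0.54 (limma adjusted p 0.020). Tmem201 (-0.71) and Tmem43 (-0.65), both of the inner membrane, fell with limma adjusted p of 0.013 and 0.0098. Of 5 lamin processing genes 1 was called: Icmt, the methyltransferase that acts on farnesylated proteins such as prelamin A, fell from 19.7 to 10.99 FPKM (-0.81, SE 0.16, limma adjusted p 0.0095).

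Of 34 nuclear scaffold and hnRNP genes, 2 rose and 6 fell. Rif1, a regulator of replication timing, rose from 2.63 to 6.88 FPKM (1.08, SE 0.18, limma adjusted p 0.0055). Hnrnpab (-0.73), Raly (-0.68) and Hnrnpul1 (-0.67), all RNA-binding hnRNP family members, fell with limma adjusted p of 0.011, 0.0070 and 0.015. Of 27 nuclear pore genes 3 rose and 3 fell: Ranbp2 of the cytoplasmic filaments (0.64) and Seh1l of the Y complex (0.63) rose, with limma adjusted p of 0.017 and 0.016, and the channel protein Nup62 (-0.76) and the membrane anchor Pom121 (-0.65) fell, with 0.012 and 0.013. None of the 15 proliferation genes was called over both genotypes and 0 had an unadjusted limma p under 0.05; their median was 0.74 log2 units in WT and -1.58 in CIZ1 null adaptation. Of 7 arrest genes 4 fell, among them Cdkn1a (p21, -1.59, limma adjusted p 0.019), and 1 rose.

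The units whose log2(FPKM + 1) was most like that of each gene over the 15 samples differed between the lamins. Closest to Lmna were Gipc1, Gnai2 and the unit of Pfn1 (Pearson's r 0.974, 0.973 and 0.972), and closest to Lmnb1 were the histone chaperone gene Nasp and the cell cycle genes Cks1b and Cdca8 (0.975, 0.947 and 0.942). Closest to Lmnb2 was Pkmyt1 (0.933), to Lbr Hjurp (0.913), to Tmpo Rad18 (0.906) and to Emd Prpf31 (0.963). Among the matrix genes, Hnrnpu was closest to Ahctf1 (0.907), Hnrnpk to Ranbp2 (0.893), Matr3 to Ccar1 (0.941) and Safb to Ddx23 (0.942). Within the set, Lmna and Emd were the pair most alike (0.858), and Lmna and Matr3 the pair most opposed (-0.71). These coefficients are descriptions over samples that share the adaptation groups and, among null lines, the split in proliferation genes.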

How the data were processed

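Poly(A)-selected RNA of 15 fibroblast populations was sequenced by the authors as paired-end libraries with a kit that does not mark strand. The authors trimmed reads with cutadapt 1.8.3, aligned them to GRCm38 with HISAT2 2.0.5, assembled and merged transcripts with Cufflinks and Cuffmerge, and deposited normalised FPKM from Cuffnorm for 65522 units, and a table of their own Cuffdiff 2.2.1 comparisons (group means, fold changes, p and q values), which was not used. FPKM are not counts, the reads behind each value are unknown, and relative depth came from 6880 units under 0.3 FPKM.

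Groups came from the labels. The embryo of 12 samples was read by matching values to the study's per-line tables; 1 of these, E13.17, has a source name that reads S13. The strand of a unit was taken from the order of unit identifiers, which matched GENCODE M21 for 98.2% of 33181 units. Promoter windows are from RefSeq.

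log2(FPKM + 1) was compared with limma 3.58.1 (R 4.3.3, eBayes with trend), over units with a mean of at least 1 FPKM, with only the samples of the comparison and Benjamini-Hochberg adjustment over all units. Untreated E13.17 counted as primary CIZ1 null. Alternatives were a pseudocount of 0.1, no filter, a mean of at least 5 FPKM, quantile normalization, all 4 groups in a fit, array weights, the embryo as a block, other primary CIZ1 null sets and each sample left out. Primary and adapted samples pair by embryo, since each line was derived from that population; their deviations from group means correlated by 0.146, -0.01 and 0.211 in WT (E13.1, E13.8, E14.4) and 0.111, 0.089 and -0.021 in CIZ1 null cells (E13.15, E13.17, E14.2). On simulated data with 200 units changed by 1 and 2 log2 units, 68 and 171 were recovered over both genotypes, 0 and 127 in WT adaptation, 0 and 106 in null adaptation, 19 and 165 for CIZ1 loss in primary cells, 0 and 73 in adapted cells, 0 and 93 for the interaction, and 0 and 0 for doxycycline. Recovery under this adjustment depends on the share of units changed. The data called 31.4% of 20046 units over both genotypes, 9.55% in WT and 4.86% in null adaptation. The recovered counts therefore do not give the power of those comparisons.

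The members, lists and comparisons were chosen with earlier results of these data known. All 10 genes are named in each comparison, with at most 4 of the called genes of any other list and the units most like each gene. Other steps ran in Python 3.11.15 (pandas 2.3.3, NumPy 2.4.6, Matplotlib 3.10.9 and SciPy 1.17.1).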

Additional observations from a re-analysis of the deposited data

How the results depend on the processing

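Of 1628 alternative values for single units, 1571 stayed on their side of the threshold, 38 lost and 19 gained a call, and none of the called values changed sign, while 132 values called under neither setting did. The number of genes called in WT adaptation, 2, was 1 with all 4 groups fitted together and 1 with a replicate block for embryos, and 0 to 2 when single samples were left out. In CIZ1 null adaptation, 1 became 0 without a filter on FPKM, 2 with all 4 groups fitted together, 0 with the replicate block, 0 with E14.2 and E13.15 as the only primary CIZ1 null populations, and 0 to 4 when single samples were left out (4 without adapted E13.15). The interaction gave 0 to 2 genes (2 without adapted E13.15), and adaptation over both genotypes 1 to 2 when both samples of an embryo were left out (1 without E14.2) against 3. Without the replicate block the latter was 4. CIZ1 loss in primary or adapted cells and doxycycline gave 0 under each alternative. The fall of the lamin ratio was 0.67 to 1.04 log2 units with each sample left out and 0.74 with opposite-strand units added. Over all units, leaving out 1 WT adapted line gave 1296 to 2972 calls against 1902, while the replicate block and each primary population left out gave far fewer; the cause was not tested. Beside the calls named with the results, the block changed that of the first Lmnb1 opposite-strand unit over both genotypes (limma adjusted p 0.0696 with and 0.0494 without it) and that of the lamin ratio (-0.85 log2 units either way, exact permutation p 0.0938 with and 0.017 without it). Depth is known only as a ratio between libraries.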

Other observations

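Within the 6 primary populations, the mean log2(FPKM + 1) of the 15 proliferation genes was related to each of the 10 genes by exact permutation tests, 10 relations in all. Lmnb2 had the highest coefficient (n = 6, Pearson's r 0.919, exact permutation p = 0.051, adjusted p 0.51; Spearman's rho 0.771, exact p = 0.10, adjusted p 0.81), and without the 2 populations farthest from the median on the proliferation axis, E14.4 and E13.15, r was 0.206. None of the 10 relations passed the adjustment. The adapted lines fall into 4 with high and 2 with low proliferation transcripts, so no coefficient was computed over them.

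Untreated S13 had the lowest Tmpo (22.7 FPKM) and Safb (23.9 FPKM) of the 15 populations and a Lmna level (284.5 FPKM) between the primary and the adapted ranges. It also had the lowest relative depth, 0.482, and summed proliferation genes of 327 FPKM.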
